A study of Mus musculus with 8 samples.

Results

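Accessible chromatin at 48 genes of the Wnt pathway was compared in mesoderm cells sorted at day 4 from mouse embryoid bodies, the aggregates that embryonic stem cells form as they differentiate. The set holds 23 ligands and agonists (19 Wnt genes and 4 R-spondin genes), 12 receptors (10 Frizzled genes, Lrp5 and Lrp6), 8 secreted antagonists (Frzb, 4 Sfrp genes and 3 Dkk genes) and 5 effectors (Lef1, Tcf7, Tcf7l1, Tcf7l2 and Axin2). A region counted as a member when its midpoint lay inside the span of one of these genes, or within 100 kb of it, and no other protein-coding gene was nearer. This gave 705 of the 168842 regions in the deposited table, and each of the 48 genes had at least 1 region. Ligands held 279 regions, receptors 138, antagonists 106 and effectors 182. Of these regions, 63 lay within 1 kb of an end of the gene, 291 elsewhere inside it and 351 outside it. Either end of the gene counted, so a gene-end region need not lie at the promoter. The nearest-gene rule does not show that a region acts on that gene, and it divides the regions between neighbours where Wnt genes adjoin each other, as Wnt3 and Wnt9b, Wnt3a and Wnt9a, Wnt6 and Wnt10a, and Wnt1 and Wnt10b do.

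The 8 libraries form 4 groups of 2, sorted on FLK1, the VEGF receptor encoded by Kdr, and on PDGFRalpha, a growth factor receptor found on paraxial and cardiac mesoderm. OE SP cells carried FLK1 without PDGFRalpha and came from the iETV2 line, which received 2 µg/ml doxycycline from day 2.5 to switch on Etv2. WT SP cells were the same sort from the wild-type A2lox.Cre line, with no doxycycline named in their labels. KO DP cells carried both receptors and came from an Etv2 knockout line. WT DP cells were the double-positive sort of the wild-type A2lox.Cre line. All embryonic stem cells were kept on embryonic fibroblast feeders and taken off them before differentiation. Etv2 is an ETS transcription factor that endothelial and blood development requires. Line goes with genotype, and in OE SP also with doxycycline, so these cannot be told apart. The labels give neither the number of clones nor whether the libraries within a group had cultures of their own, so the p-values reflect the spread of these libraries alone, which can be technical. In sorted bulk cells, fewer cells with an open region and less opening per cell cannot be told apart.

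Wnt proteins are secreted lipid-modified ligands that bind Frizzled receptors together with the co-receptors Lrp5 and Lrp6. In the canonical branch this stabilises beta-catenin, which joins the DNA-binding proteins Lef1, Tcf7, Tcf7l1 and Tcf7l2 at target genes, while the branch used by Wnt5a and Wnt11 acts on cell polarity and movement without beta-catenin. Frzb and the Sfrp proteins bind Wnt ligands, Dkk1 blocks the Lrp co-receptors, R-spondins keep receptors on the cell surface, and Axin2 is a scaffold of the beta-catenin destruction complex and itself a common target of the pathway. In the embryo, Wnt3 and Wnt3a act in the primitive streak and early mesoderm, where the signal must later fall for heart progenitors to form.

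Promoter windows of 7 member genes are given here because the regions over 6 of them had fewer reads in OE SP than in WT SP, while the region over the promoter of Fzd7 did not pass the test. The windows come from RefSeq (GRCm38.p6, the assembly of mm10), run 5′ to 3′ on the strand of the gene, and hold 250 bases before the annotated start and 50 after it. Capitals mark matches on either strand to a TCF/LEF motif (CTTTGAT), an ETS motif (CCGGAA) or a GATA motif (AGATAA), and none of these matches overlapped another.
Wnt16, chr6:22287977-22288276, plus strand: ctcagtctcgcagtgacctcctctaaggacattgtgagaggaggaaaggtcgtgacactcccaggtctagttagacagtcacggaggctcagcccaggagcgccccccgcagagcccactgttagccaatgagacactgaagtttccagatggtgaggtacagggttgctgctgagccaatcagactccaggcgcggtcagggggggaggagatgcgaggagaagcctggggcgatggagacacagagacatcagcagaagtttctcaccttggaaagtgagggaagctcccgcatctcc
Wnt11, chr7:98834862-98835161, plus strand: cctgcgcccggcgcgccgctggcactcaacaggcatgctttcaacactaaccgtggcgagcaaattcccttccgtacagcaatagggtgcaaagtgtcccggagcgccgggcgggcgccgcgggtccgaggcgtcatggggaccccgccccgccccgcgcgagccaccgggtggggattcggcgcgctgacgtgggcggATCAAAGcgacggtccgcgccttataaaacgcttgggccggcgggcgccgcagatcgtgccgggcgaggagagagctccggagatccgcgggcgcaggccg
Fzd7, chr1:59481897-59482196, plus strand: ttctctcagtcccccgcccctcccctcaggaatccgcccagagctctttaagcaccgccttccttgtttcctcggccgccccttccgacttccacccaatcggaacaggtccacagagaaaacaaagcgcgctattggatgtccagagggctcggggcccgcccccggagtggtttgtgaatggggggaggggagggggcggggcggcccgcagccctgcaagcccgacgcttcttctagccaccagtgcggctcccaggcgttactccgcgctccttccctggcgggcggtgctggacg
Frzb, chr2:80447347-80447646, minus strand: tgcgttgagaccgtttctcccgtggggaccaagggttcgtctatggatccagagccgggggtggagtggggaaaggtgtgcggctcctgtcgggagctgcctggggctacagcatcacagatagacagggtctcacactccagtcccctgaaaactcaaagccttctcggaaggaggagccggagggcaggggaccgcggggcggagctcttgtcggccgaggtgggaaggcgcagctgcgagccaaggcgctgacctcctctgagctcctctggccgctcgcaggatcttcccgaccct
Sfrp5, chr19:42202203-42202502, minus strand: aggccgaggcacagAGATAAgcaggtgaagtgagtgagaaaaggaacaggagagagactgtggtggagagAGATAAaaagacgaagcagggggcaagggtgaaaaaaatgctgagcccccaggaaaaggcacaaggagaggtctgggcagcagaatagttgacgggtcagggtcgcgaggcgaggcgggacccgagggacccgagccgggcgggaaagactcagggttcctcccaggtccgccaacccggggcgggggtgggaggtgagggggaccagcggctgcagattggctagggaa
Dkk1, chr19:30549447-30549746, minus strand: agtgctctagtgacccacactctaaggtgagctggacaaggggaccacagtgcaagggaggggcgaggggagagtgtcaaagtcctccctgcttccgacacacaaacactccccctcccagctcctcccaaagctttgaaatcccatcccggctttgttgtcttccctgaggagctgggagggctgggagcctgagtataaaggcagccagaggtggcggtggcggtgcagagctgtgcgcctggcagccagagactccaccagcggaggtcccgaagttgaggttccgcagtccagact
Lef1, chr3:131110047-131110346, plus strand: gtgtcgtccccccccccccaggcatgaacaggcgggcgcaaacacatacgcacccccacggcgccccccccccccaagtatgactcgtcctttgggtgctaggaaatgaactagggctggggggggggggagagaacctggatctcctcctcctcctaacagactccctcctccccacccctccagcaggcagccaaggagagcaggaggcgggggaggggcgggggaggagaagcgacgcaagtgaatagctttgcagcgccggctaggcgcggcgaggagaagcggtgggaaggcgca
Promoter windows were given for 33 of the 48 genes. A member region covered at least 150 bases of 23 of the windows searched, from 21 genes. Of these genes, 8 had such a region called lower in OE SP than in WT SP and 0 had one called higher. Counted by region, 20.6% of the gene-end regions of all genes were lower in this comparison and 6.76% higher. The TCF/LEF motif was in 1 of the 23 windows, that of Wnt11 above, against 3.73% of all 32851 windows. The GATA motif was in 1, that of Sfrp5, where it occurred at both capitalised places, against 11.2% of all windows. The ETS motif was in 1, a second Wnt11 window not shown, against 14.9% of all windows. A match is a description of these letters only.

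Each library held 12477601 to 18853733 reads in regions, and the median region held 27.0 to 42.0 reads. The correlation of replicates across regions, which are not independent replicates, was 0.937 in OE SP and 0.975 to 0.978 in the other groups, so OE SP values carry the widest spread. The main test pools the spread of all 4 groups. Each SE and p-value for OE SP therefore rests partly on the tighter groups. Those for WT SP against WT DP and for KO DP against WT DP take in the wider OE SP spread. The knockout label was checked at Etv2, where the region at chr7:30634628-30635028 had 0.840 and 0 normalized reads in KO DP, against 563 and 611 in WT DP. At Etv2 itself 0 of 3 regions were called different between OE SP and WT SP. The endothelial marker list (Cdh5, Tek, Tie1, Pecam1, Emcn and Erg) had 40 of 119 regions called higher and 25 lower in OE SP than in WT SP, and in WT SP against WT DP it had 16 higher and 5 lower. Over all regions 16.6% were higher and 31.9% lower in OE SP than in WT SP. The blood list (Tal1, Gata1, Runx1, Itga2b and Hhex) had 22 of 90 regions higher and 41 lower in OE SP, and the paraxial mesoderm list (Tbx6, Msgn1, Meox1 and Foxc2) 2 of 25 higher and 12 lower. The early cardiac list (Mesp1, Hand1, Tbx5, Nkx2-5 and Isl1) had 6 of 95 regions higher and 56 lower in OE SP than in WT SP, and the feeder fibroblast list (Col1a1, Col1a2 and Thy1) had 3 of 46 higher and 20 lower. The part of these cell type differences in the Wnt results was not tested. All values below are the deposited normalized reads per region, and changes are differences of log2(value + 5) tested with limma over all 167573 regions with a mean of at least 10, of which 704 were members. A region was called at an adjusted p below 0.05.

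In WT SP cells compared with WT DP cells, the share of regions that lost accessibility was highest at the effectors (17.6%) and the secreted antagonists (17.1%), while ligand regions moved in both directions. Of 704 member regions, 79 (11.2%) were called lower and 31 (4.40%) higher, against 8.12% lower and 6.20% higher over all regions tested. The median change was 0.02 over members and 0.11 over all regions. Effectors had 32 of 182 regions lower and 8 higher, and antagonists 18 of 105 lower and 3 higher. Receptors had 12 of 138 lower and 3 higher. Ligands had 17 of 279 lower and 17 higher, a balance that turned to 28 lower and 9 higher when libraries were scaled on the 10000 highest regions, and to 35 lower and 63 higher when the WT SP and WT DP libraries were fitted alone. Fitting them alone gave 141 lower and 122 higher over all members, against 15.5% lower and 22.4% higher over all regions. The scaling on the 10000 highest regions gave 122 lower and 20 higher over all members, against 12.4% lower and 4.30% higher over all regions. Median-of-ratios scaling gave 99 lower and 28 higher members, against 9.86% lower and 5.58% higher, and edgeR gave 110 lower and 32 higher, against 11.8% lower and 6.45% higher. By gene, 15 had only lower regions among those called, 3 only higher (Wnt9a, Wnt9b and Wnt11, named after their values were seen), 14 both and 16 none. A split by gene was not made over all protein-coding genes. The bars of calls show the split by role for each comparison.

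**Figure D1:**
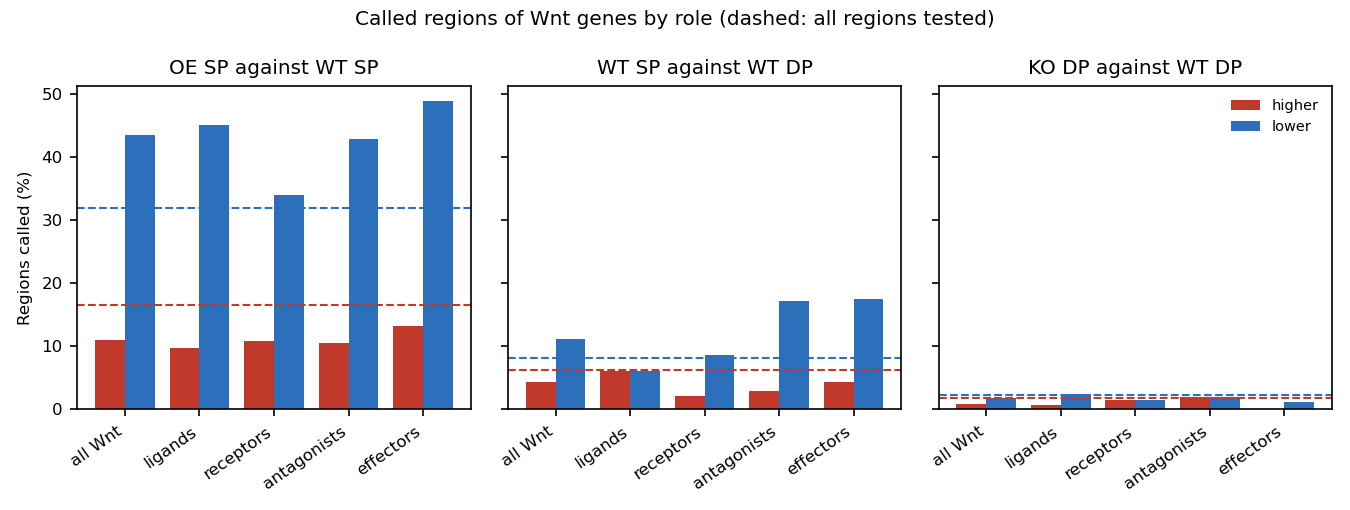
Bars give the percent of tested Wnt gene regions called higher (red) or lower (blue) in each comparison, for all 48 genes and by role, and dashed lines give the percent over all 167573 regions. In OE SP against WT SP the share called lower was 43.6% over all members and lowest at receptors, and in WT SP against WT DP effectors and antagonists stood above the dashed line for lower regions.

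Among effectors, Lef1, the DNA-binding partner of beta-catenin that marks active signalling in early mesoderm, had 8 of its 35 regions lower in WT SP and 0 higher. The region inside the gene at chr3:131118619-131119019 had 106 and 111 normalized reads in WT SP, against 437 and 415 in WT DP (log2 change -1.93, SE 0.17, limma adjusted p = 0.000176). This region, like the others named by lowest adjusted p, could be named only if the groups did not overlap. Tcf7l2, another DNA-binding effector, had 9 of 62 lower and 2 higher. Its region at chr19:55788472-55788872 had 66.2 and 52.5 reads in WT SP, against 218 and 219 in WT DP (log2 change -1.81, SE 0.20, limma adjusted p = 0.00033). Tcf7l1, which acts mainly as a repressor in embryonic stem cells, was mixed, with 7 of 42 lower and 4 higher. Its most certain fall was at chr6:72682547-72682947, with 36.6 and 33.7 reads in WT SP, against 148 and 139 in WT DP (log2 change -1.89, SE 0.22, limma adjusted p = 0.000411). Axin2 had 6 of 26 lower and 1 higher. The Axin2 region at chr11:108947482-108947882 had 93.6 and 79.3 reads in WT SP, against 209 and 251 in WT DP (log2 change -1.36, SE 0.19, limma adjusted p = 0.00107). For these 4 regions the call held under each alternative processing and without any 1 library. That their groups did not overlap was a condition of being named.

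Among the antagonists that bind Wnt ligands, losses were at Sfrp1 and Frzb, while Sfrp2 had 1 region lower and 1 higher, Sfrp4 had 0 called and Sfrp5 had 2 lower and 1 higher. Sfrp1 had 7 of 28 regions lower and 1 higher, and Frzb 6 of 12 lower and 0 higher. Inside Sfrp1, the region at chr8:23443344-23443744 had 37.7 and 42.6 reads in WT SP, against 167 and 155 in WT DP (log2 change -1.88, SE 0.20, limma adjusted p = 0.000293). Outside Frzb, 13014 bp from the gene, chr2:80398756-80399156 had 139 and 144 reads in WT SP, against 315 and 318 in WT DP (log2 change -1.13, SE 0.18, limma adjusted p = 0.00206). Outside Sfrp5, 9801 bp from the gene, chr19:42211853-42212253 had 50.9 and 65.4 reads in WT SP, against 29.1 and 22.5 in WT DP (log2 change 1.04, SE 0.23, limma adjusted p = 0.0122), a gain that was lost without any 1 of the 4 libraries. At the Frzb and Sfrp1 gene ends no call was made: the Frzb gene-end region had 567 and 556 reads in WT SP, against 649 and 724 in WT DP, a difference that did not pass the test (log2 change -0.29, SE 0.14, limma adjusted p = 0.208). The Sfrp1 gene-end region likewise had 373 and 359.9 reads in WT SP and 301 and 346 in WT DP, and did not pass the test (log2 change 0.18, SE 0.19, limma adjusted p = 0.549), although both WT SP libraries lay above both WT DP libraries.

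At the ligands of the primitive streak few regions were called in WT SP: Wnt3 had 2 of 11 lower and 0 higher, and Wnt3a 1 of 20 lower and 0 higher. Inside Wnt3, chr11:103808546-103808946 had 223 and 225 reads in WT SP, against 530.0 and 479 in WT DP (log2 change -1.15, SE 0.17, limma adjusted p = 0.0013). The Wnt3a region at chr11:59274648-59275048 had 44.8 and 37.7 reads in WT SP, against 146 and 130.2 in WT DP (log2 change -1.63, SE 0.23, limma adjusted p = 0.00113). Near Wnt5a, the main ligand of the polarity branch, chr14:28528279-28528679 had 67.2 and 52.5 reads in WT SP, against 160.2 and 202 in WT DP (log2 change -1.52, SE 0.20, limma adjusted p = 0.000833). These 3 regions were lower in both WT SP libraries than in either WT DP library, which the rule that named them required. In the other direction, Wnt4 had 8 of 32 regions higher and 1 lower, with called rises of 0.87 to 1.21 on the log2 scale, a balance that became 3 higher and 3 lower under scaling on the 10000 highest regions. The region inside Wnt7b at chr15:85542485-85542885 had 183 and 189 reads in WT SP, against 53.4 and 56.6 in WT DP (log2 change 1.67, SE 0.26, limma adjusted p = 0.00184). Near Wnt9a, chr11:59350341-59350741 had 201 and 203 reads in WT SP, against 68.0 and 71.9 in WT DP (log2 change 1.47, SE 0.21, limma adjusted p = 0.00135). Both regions were named on the condition that the groups did not overlap. Gene-end regions of ligands were called lower at Wnt8a and Wnt8b only, and the Wnt8b region had 52.9 and 54.5 reads in WT SP, against 171 and 172 in WT DP (log2 change -1.59, SE 0.31, limma adjusted p = 0.00573), calls that were lost without any 1 of the 4 libraries.

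Among receptors the largest named change was a gain. The region 58796 bp from Fzd10, at chr5:128542110-128542510, had 305 and 288 reads in WT SP, against 79.6 and 71.9 in WT DP (log2 change 1.90, SE 0.19, limma adjusted p = 0.000262), and its level in KO DP was 78.9 and 92.7. Fzd7 is a Frizzled receptor of pluripotent cells and early mesoderm. The Fzd7 region at chr1:59451687-59452087 had 40.7 and 36.7 reads in WT SP, against 125 and 131 in WT DP (log2 change -1.61, SE 0.19, limma adjusted p = 0.000501). Of the 48 regions chosen as the highest at each gene end (or, for 5 genes without one, the highest anywhere), 0 were higher and 3 lower in WT SP. The lower regions were those of Wnt8a, Wnt8b and Axin2. The Axin2 region lay at the end of the gene away from its promoter window. Its call was lost with a pseudocount of 1, with the replicate number as a block and without any 1 of the 4 libraries. Counting all 63 member regions at a gene end, 4 (6.35%) were lower and 2 (3.17%) higher. Over the gene-end regions of all genes, 1.86% were lower and 3.20% higher. Without any 1 of the WT SP or WT DP libraries, the counts over members were 24 to 31 lower and 3 to 5 higher, and calls over all regions fell alike, to 1.06% to 1.38% higher and, in the lowest of the 4 fits, 2.09% lower.

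**Figure D2:**
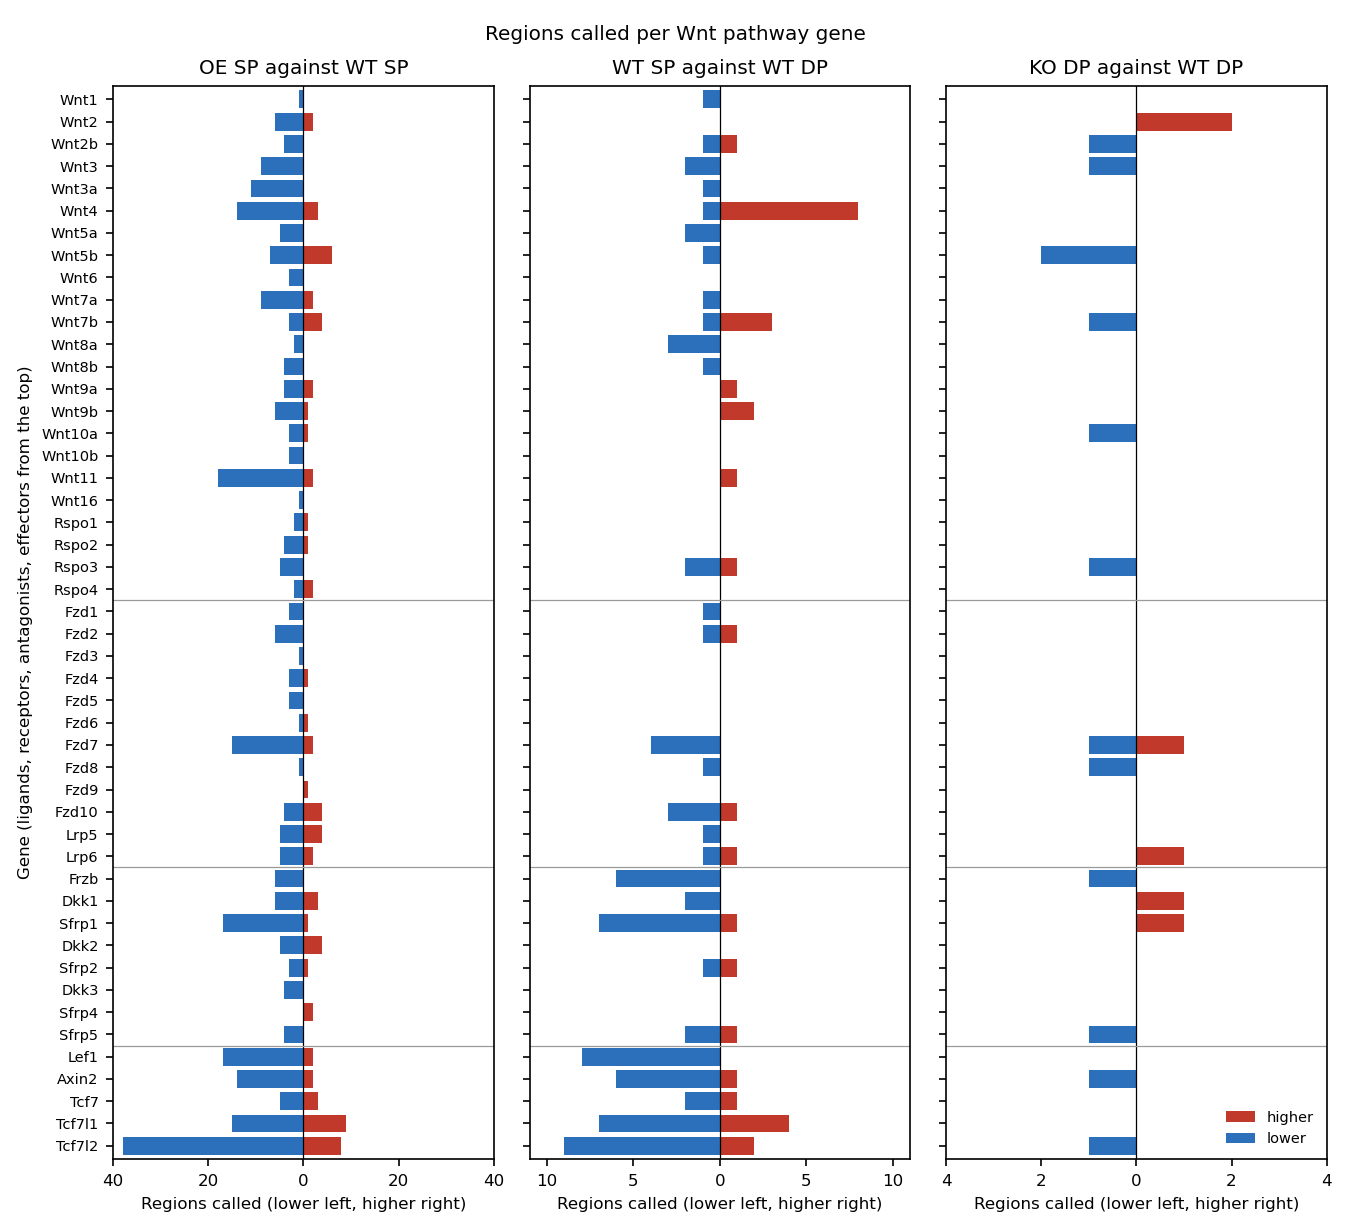
Each row is a gene, ligands at the top, then receptors, antagonists and effectors; bars to the left count regions called lower and bars to the right regions called higher, with a scale of its own in each panel. Tcf7l2 had 38 lower and 8 higher regions in OE SP against WT SP, Wnt4 stood out for 8 higher regions in WT SP against WT DP, and KO DP against WT DP showed at most 2 regions for any gene.

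With induced Etv2, most calls at the 48 genes were losses. Each gene had at least 1 region called different between OE SP and WT SP, but this was not counted for all genes. At the shares called over all regions given next, a gene with many regions is likely to hold a call whatever its pathway. Of 704 member regions, 307 (43.6%) were lower and 77 (10.9%) higher, against 31.9% lower and 16.6% higher over all regions tested. Under edgeR on the recovered reads the split of members was 243 lower and 112 higher, against 24.7% lower and 24.5% higher over all regions. Median-of-ratios scaling gave 252 lower and 105 higher, against 25.4% lower and 23.3% higher. Scaling on the 10000 highest regions gave 265 lower and 100 higher, against 26.3% lower and 22.0% higher. Fitting the OE SP and WT SP libraries alone gave 248 lower and 66 higher, against 41942 lower and 23373 higher of all 167573 regions. The median change of all regions was -0.22 as deposited and -0.00 under median-of-ratios scaling; relative to it, the median over members was -0.27 and -0.28. Ligands had 126 of 279 regions lower and 27 higher, antagonists 45 of 105 lower and 11 higher, and effectors 89 of 182 lower and 24 higher. Receptors had 47 of 138 lower and 15 higher, and 33 lower and 26 higher under edgeR. The share of a library's reads that fell in member regions was 0.373% and 0.374% in OE SP, against 0.441% and 0.441% in WT SP. For antagonists alone it was 0.0419% and 0.0391% in OE SP, against 0.0568% and 0.0580% in WT SP, while receptors took 0.104% and 0.104% in OE SP, against 0.103% and 0.0988% in WT SP. By gene, 19 had only lower regions among those called, 2 only higher (Fzd9 and Sfrp4) and 27 both, a split not made for all genes.

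At the ligands of the primitive streak each called region was a loss. Wnt3 had 9 of 11 regions lower and 0 higher, and Wnt3a 11 of 20 lower and 0 higher. Inside Wnt3, chr11:103804639-103805039 had 15.3 and 15.8 reads in OE SP, against 177 and 147 in WT SP (log2 change -3.02, SE 0.18, limma adjusted p = 2.99e-06). At its gene end, chr11:103818256-103818656, OE SP had 6.57 and 28.9 reads, against 80.4 and 85.3 in WT SP (log2 change -2.15, SE 0.37, limma adjusted p = 0.000589); the OE SP libraries were far apart there but both below WT SP. The Wnt3a region at chr11:59247680-59248080, 156 bp from the gene, had 8.75 and 5.26 reads in OE SP, against 58.0 and 65.4 in WT SP (log2 change -2.49, SE 0.24, limma adjusted p = 1.48e-05).

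Wnt11, a polarity ligand of early heart mesoderm, had 18 of 31 regions lower and 2 higher. Its promoter, the window with the TCF/LEF match, is covered by chr7:98834753-98835153, with 105 and 112 reads in OE SP, against 206 and 216 in WT SP (log2 change -0.93, SE 0.17, limma adjusted p = 0.000797). A fall with a larger change stood inside the gene at chr7:98840693-98841093, with 117 and 204 reads in OE SP, against 698 and 640.4 in WT SP (log2 change -2.08, SE 0.21, limma adjusted p = 1.91e-05). The Wnt16 promoter region, chr6:22287968-22288368, had 142 and 189 reads in OE SP, against 559 and 550.2 in WT SP (log2 change -1.73, SE 0.16, limma adjusted p = 1.13e-05). Wnt16 is a ligand known in zebrafish for its part in making blood stem cells, and its promoter region had 744 and 759 reads in KO DP, against 673 and 678 for WT DP, and did not pass the test (log2 change 0.15, SE 0.16, limma adjusted p = 0.653). Wnt5a had 5 of 9 regions lower and 0 higher, and inside the gene chr14:28505750-28506150 had 109 and 143 reads in OE SP, against 351 and 374 in WT SP (log2 change -1.50, SE 0.18, limma adjusted p = 4.23e-05). Wnt4, with the 8 higher regions in WT SP on the deposited scale, had 14 of 32 lower and 3 higher in OE SP than in WT SP. The Wnt9a region that was higher in WT SP had 36.5 and 57.8 reads in OE SP, against 201 and 203 in WT SP (log2 change -2.02, SE 0.21, limma adjusted p = 2.37e-05). Both comparisons use the WT SP libraries, so these opposite directions are not independent. Wnt5b and Wnt7b were mixed, with 7 lower and 6 higher of 24 and 3 lower and 4 higher of 26, and Wnt5b turned to 6 lower and 7 higher under median-of-ratios scaling, 2 other scalings and edgeR. Among the R-spondins, Rspo2, Rspo3 and Rspo4 each had a lower gene-end region, with changes of -0.51, -0.57 and -0.52, and these calls were lost under median-of-ratios scaling and edgeR.

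**Figure D3:**
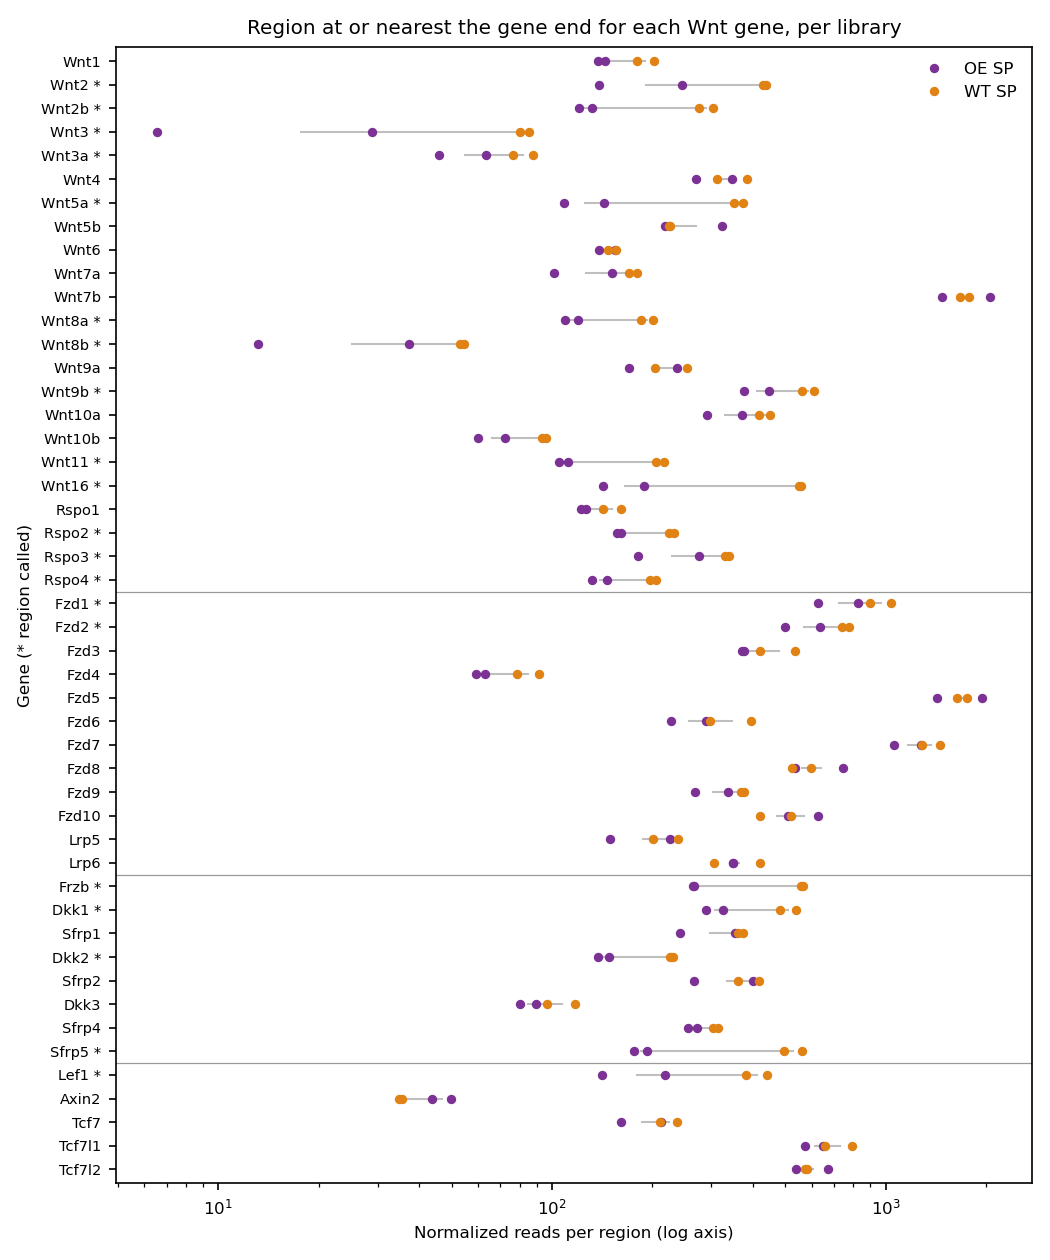
Points are normalized reads (log axis) in each OE SP (purple) and WT SP (orange) library at the highest gene-end region of each gene, or its highest region where it has none; grey lines join the group means and stars mark called regions. Wnt16, Sfrp5, Wnt5a and Lef1 were separated between the groups, while the highest regions, at Wnt7b, Fzd5 and Fzd7, overlapped or lay close.

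The share of receptor regions called lower, 34.1%, was close to the 31.9% over all regions, and 2 of the 12 receptor regions taken as 1 a gene were called. Fzd7 had 15 of 24 regions lower and 2 higher, a count that was the same under 3 other scalings and edgeR. Its region at chr1:59484863-59485263 had 128 and 183 reads in OE SP, against 434 and 434 in WT SP (log2 change -1.47, SE 0.17, limma adjusted p = 4.32e-05). Over the promoter printed above, by contrast, it had 1057 and 1274 reads in OE SP and 1453 and 1282 in WT SP, a difference that did not pass the test (log2 change -0.23, SE 0.15, limma adjusted p = 0.233). Fzd5 had the highest gene-end level of the receptors, 1421 and 1938 reads in OE SP and 1756 and 1634 in WT SP, with overlapping groups. Among the Lrp co-receptors, Lrp5 had 5 of 24 lower and 4 higher, and the region at chr19:3632528-3632928 had 9.48 and 5.26 reads in OE SP, against 58.0 and 46.6 in WT SP (log2 change -2.23, SE 0.23, limma adjusted p = 2.19e-05). Lrp6 gained a region inside the gene, chr6:134515406-134515806, with 250.2 and 213 reads in OE SP, against 76.3 and 65.4 in WT SP (log2 change 1.64, SE 0.22, limma adjusted p = 0.000114). The distal Fzd10 region rose further, to 1185 and 1703 reads in OE SP, against 305 and 288 in WT SP (log2 change 2.24, SE 0.19, limma adjusted p = 7.77e-06). Fzd10 as a whole had 4 of 25 regions lower and 4 higher, and 2 lower and 7 higher under median-of-ratios scaling. Near Fzd9, chr5:135264063-135264463 had 259 and 311 reads in OE SP, against 75.3 and 58.5 in WT SP (log2 change 2.02, SE 0.21, limma adjusted p = 1.88e-05). The gains at Fzd10, Fzd9 and Lrp6 held under each alternative.

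Some antagonists lost accessibility at promoters as well as at distal regions, while the Sfrp2 promoter region and the Sfrp4 and Dkk3 gene-end regions were not called. Sfrp1 had 17 of 28 regions lower and 1 higher, and the region inside it at chr8:23435578-23435978 had 16.0 and 17.1 reads in OE SP, against 98.7 and 110.0 in WT SP (log2 change -2.34, SE 0.18, limma adjusted p = 4.89e-06). Its gene-end region, in contrast, had 241 and 353 reads in OE SP and 373 and 359.9 in WT SP and did not pass the test (log2 change -0.32, SE 0.19, limma adjusted p = 0.178). At the Sfrp5 promoter, chr19:42201992-42202392 had 177 and 193 reads in OE SP, against 559.8 and 496 in WT SP (log2 change -1.49, SE 0.15, limma adjusted p = 1.94e-05). The Frzb promoter region, chr2:80447224-80447624, had 265 and 267 reads in OE SP, against 567 and 556 in WT SP (log2 change -1.07, SE 0.14, limma adjusted p = 0.000112). Both OE SP libraries lay under both WT SP libraries at these promoters. Dkk1 fell at its promoter, chr19:30549381-30549781, with 289.6 and 326 reads in OE SP, against 537 and 481 in WT SP (log2 change -0.72, SE 0.15, limma adjusted p = 0.00188). About 1009 bp outside the gene, chr19:30550305-30550705 had 61.3 and 65.7 reads in OE SP, against 268 and 291 in WT SP (log2 change -2.05, SE 0.16, limma adjusted p = 5.12e-06). The intragenic Dkk3 region at chr7:112121813-112122213 had 6.57 and 27.6 reads in OE SP, against 193 and 194 in WT SP (log2 change -3.36, SE 0.35, limma adjusted p = 2.17e-05), the largest fall among the regions named here. Gains were fewer. The region 58763 bp from Sfrp2, chr3:83706787-83707187, had 191 and 223 reads in OE SP, against 25.4 and 40.6 in WT SP (log2 change 2.51, SE 0.25, limma adjusted p = 1.65e-05). A region near Sfrp4, chr13:19634073-19634473, had 28.4 and 34.2 reads in OE SP, against 3.05 and 3.97 in WT SP (log2 change 2.09, SE 0.31, limma adjusted p = 0.000215); its change was 1.12 with a pseudocount of 20, 2.84 with a pseudocount of 1 and 3.35 under edgeR.

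At the effectors 48.9% of regions were lower, and 38 of these 89 regions belonged to Tcf7l2. Tcf7l2 had 38 of 62 regions lower and 8 higher, and 7 of the 8 gains lay outside the gene. Its gene-end region, with 539.8 and 671 reads in OE SP and 573 and 582 in WT SP, did not pass the test (log2 change 0.06, SE 0.15, limma adjusted p = 0.772). Lef1 had 17 of 35 lower and 2 higher, and its promoter region, chr3:131109899-131110299, had 141 and 218 reads in OE SP, against 381 and 440.2 in WT SP (log2 change -1.20, SE 0.20, limma adjusted p = 0.000401). The Lef1 region named above as lower in WT SP had 27.0 and 24.96 reads in OE SP, against 106 and 111 in WT SP (log2 change -1.87, SE 0.17, limma adjusted p = 1.05e-05), the fewest of the 4 groups. Axin2 had 14 of 26 lower and 2 higher; chr11:109039106-109039506, 88523 bp outside it, had 7.29 and 9.20 reads in OE SP, against 57.0 and 61.5 in WT SP (log2 change -2.28, SE 0.23, limma adjusted p = 1.77e-05). Tcf7l1 was split, with 15 of 42 lower and 9 higher, and 11 lower and 12 higher under median-of-ratios scaling. Its region at chr6:72747234-72747634 had 16.0 and 23.6 reads in OE SP, against 167 and 147 in WT SP (log2 change -2.72, SE 0.21, limma adjusted p = 5.15e-06). Tcf7, a Lef1 relative best known in T cells, had 5 of 17 lower and 3 higher. Inside Tcf7, chr11:52268334-52268734 rose to 188 and 209 reads in OE SP, against 43.8 and 43.6 in WT SP (log2 change 2.06, SE 0.21, limma adjusted p = 2.10e-05).

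**Figure D4:**
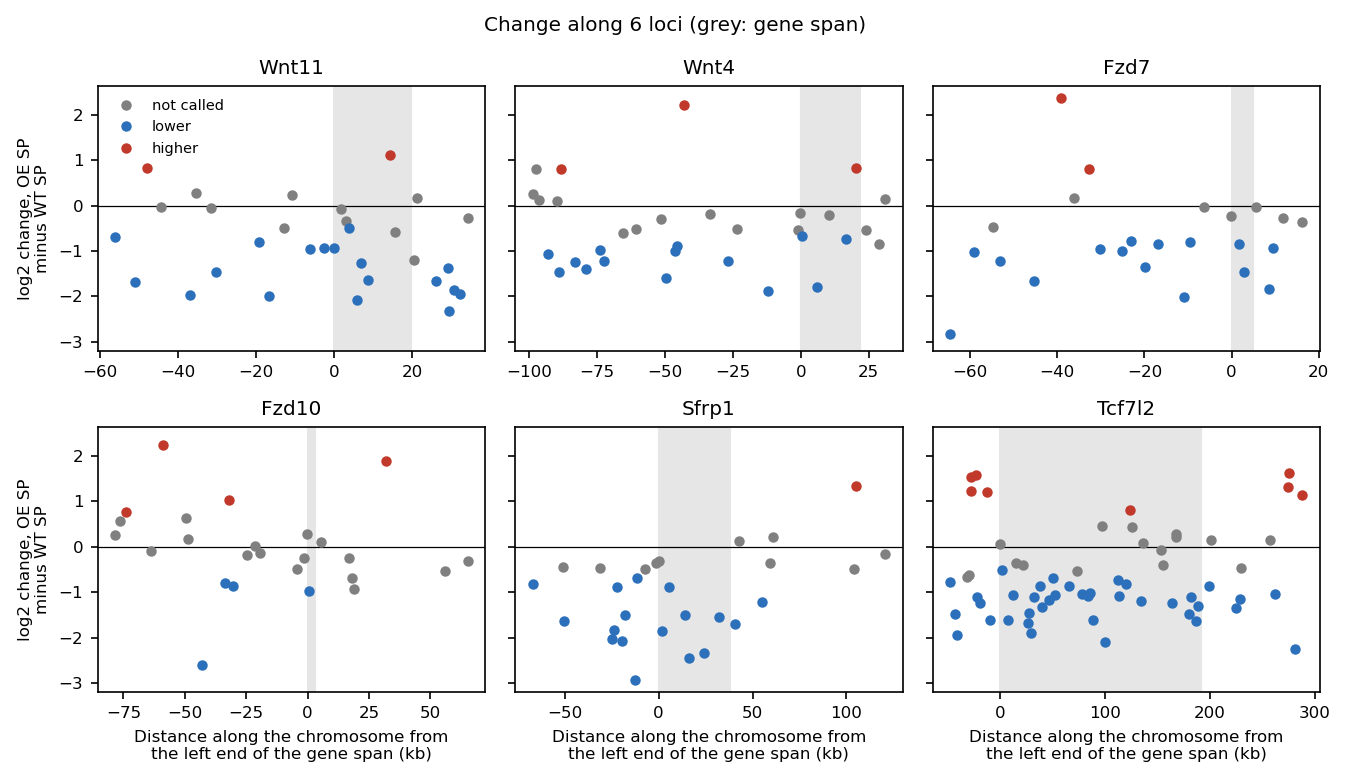
Each point is a member region, placed by its distance along the chromosome from the left end of the gene span (kb, grey band: the gene) and by its log2 change in OE SP minus WT SP; blue and red mark regions called lower and higher. At Tcf7l2, Sfrp1 and Fzd7 lower regions lay on both sides of a region at the left end that was not called, at Wnt11 the region at the left end was itself lower, and at Fzd10 lower and higher regions were equal in number.

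Across the 48 regions taken as 1 a gene at its end, or at its highest region where it has none, 20 were lower in OE SP than in WT SP and 0 higher. By role these were 13 of 23 ligands, 2 of 12 receptors (Fzd1 and Fzd2), 4 of 8 antagonists and 1 of 5 effectors. Counting all 63 member regions at a gene end, 24 (38.1%) were lower and 1 higher, against 20.6% lower and 6.76% higher of the gene-end regions of all genes. Of the 20 calls, those at Wnt3a, Wnt8b, Wnt9b, Rspo2, Rspo3, Rspo4, Fzd1 and Fzd2 were lost under at least 1 alternative, with changes of -1.09 to -0.42 on the log2 scale, and the other 12 held under each alternative. Without OE SP replicate 1 the member counts in this comparison were 311 lower and 101 higher, against 32.2% lower and 20.6% higher over all regions, and without OE SP replicate 2 they were 378 lower and 74 higher, against 39.9% lower and 16.5% higher.

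In the knockout the share of Wnt regions called lower was close to that over all regions, and the share called higher was below it. In KO DP compared with WT DP, 13 of 704 member regions (1.85%) were lower and 6 (0.852%) higher, against 2.21% lower and 1.72% higher over all regions tested. Under median-of-ratios scaling the counts were 15 lower and 14 higher, against 2.31% lower and 2.58% higher. With scaling on the 10000 highest regions they were 16 lower and 15 higher, against 2.64% lower and 3.12% higher, and under edgeR 19 lower and 19 higher, against 2.78% lower and 3.62% higher. Fitting the KO DP and WT DP libraries alone gave 109 lower and 54 higher, against 13.1% lower and 8.89% higher. Of the 63 member regions at a gene end, 2 were lower and 0 higher, against 2.56% lower and 0.863% higher of the gene-end regions of all genes. Ligands had 7 of 279 lower and 2 higher, receptors 2 of 138 lower and 2 higher, antagonists 2 of 105 lower and 2 higher, and effectors 2 of 182 lower and 0 higher. In 32 of the 48 genes 0 regions were called, a count not made for all genes. Leaving out any 1 of the 4 libraries left at most 1 region called lower and 0 higher. In those fits 1 group has a single library, which is assumed to vary like the other groups, and calls over all regions fell alike, to 0.251% to 0.368% lower and 0.282% to 0.387% higher. At an unadjusted limma p under 0.05, 135 of the 704 regions (19.2%) differed, against 19.4% of all regions.

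The Axin2 region at chr11:108947482-108947882 had 84.8 and 78.4 reads in KO DP, against 209 and 251 in WT DP (log2 change -1.43, SE 0.19, limma adjusted p = 0.00144), and of the alternatives run its call was lost only without WT DP replicate 2. It is the region that was also lower in WT SP, and both comparisons use the WT DP libraries. Inside Wnt3, chr11:103808546-103808946 had 264 and 267 reads in KO DP, against 530.0 and 479 in WT DP (log2 change -0.91, SE 0.17, limma adjusted p = 0.0109). The Wnt10a region at chr1:74797377-74797777 had 53.7 and 54.7 reads in KO DP, against 138 and 126 in WT DP (log2 change -1.21, SE 0.22, limma adjusted p = 0.0108). At these 3 regions KO DP lay below WT DP in both libraries, which the rule that named them required. The calls at Wnt3 and Wnt10a, and those at Wnt5b, Sfrp5 and Wnt2b below, were lost without any 1 of the 4 libraries. Wnt5b, with 2 lower regions, had 26.0 and 26.1 reads in KO DP, against 70.9 and 54.8 in WT DP, at chr6:119438304-119438704 (log2 change -1.12, SE 0.23, limma adjusted p = 0.0196). At the second Sfrp5 gene end, chr19:42198044-42198444 had 11.8 and 15.5 reads in KO DP, against 40.8 and 41.3 in WT DP (log2 change -1.31, SE 0.25, limma adjusted p = 0.0121). The Wnt2b gene-end region was the only one of the 48 called in this comparison, with 153 and 112 reads in KO DP, against 241 and 211 in WT DP (log2 change -0.76, SE 0.19, limma adjusted p = 0.0432), and it was also lost with a pseudocount of 1 and with the replicate number as a block.

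Gains in KO DP were at Wnt2 (2 regions), Fzd7, Lrp6, Dkk1 and Sfrp1. Near Dkk1, chr19:30539499-30539899 had 61.3 and 57.0 reads in KO DP, against 22.3 and 17.96 in WT DP (log2 change 1.36, SE 0.23, limma adjusted p = 0.00757), a low region in each other group. Near Wnt2, chr6:17972730-17973130 had 43.7 and 58.2 reads in KO DP, against 18.4 and 12.6 in WT DP (log2 change 1.45, SE 0.26, limma adjusted p = 0.0105). The Fzd7 region at chr1:59484863-59485263 had 812 and 784 reads in KO DP, against 471 and 462 in WT DP (log2 change 0.77, SE 0.17, limma adjusted p = 0.03). That the groups did not overlap at these regions was a condition of naming them. Their calls, and that of the Sfrp1 region given next, were lost without any 1 of the 4 libraries. At Sfrp1, chr8:23360867-23361267 had 550.0 and 499 reads in KO DP, against 279 and 295 in WT DP (log2 change 0.86, SE 0.20, limma adjusted p = 0.0369). All regions within 5 Mb of Sfrp1 had a median KO DP change that differed by 0.30 from that of the whole table, and the part of this stretch in the Sfrp1 value was not tested. The knockout and induction comparisons share no library. Of the 6 regions higher in KO DP, 4 were lower in OE SP (66.7% of the 6, and 1.30% of the 307 lower in OE SP) and 0 were higher. Over all members 43.6% were lower in OE SP. Of the 13 lower in KO DP, 8 were lower in OE SP (61.5% of the 13, and 2.61% of the 307) and 1 was higher, the Wnt5b region named above.

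**Figure D5:**
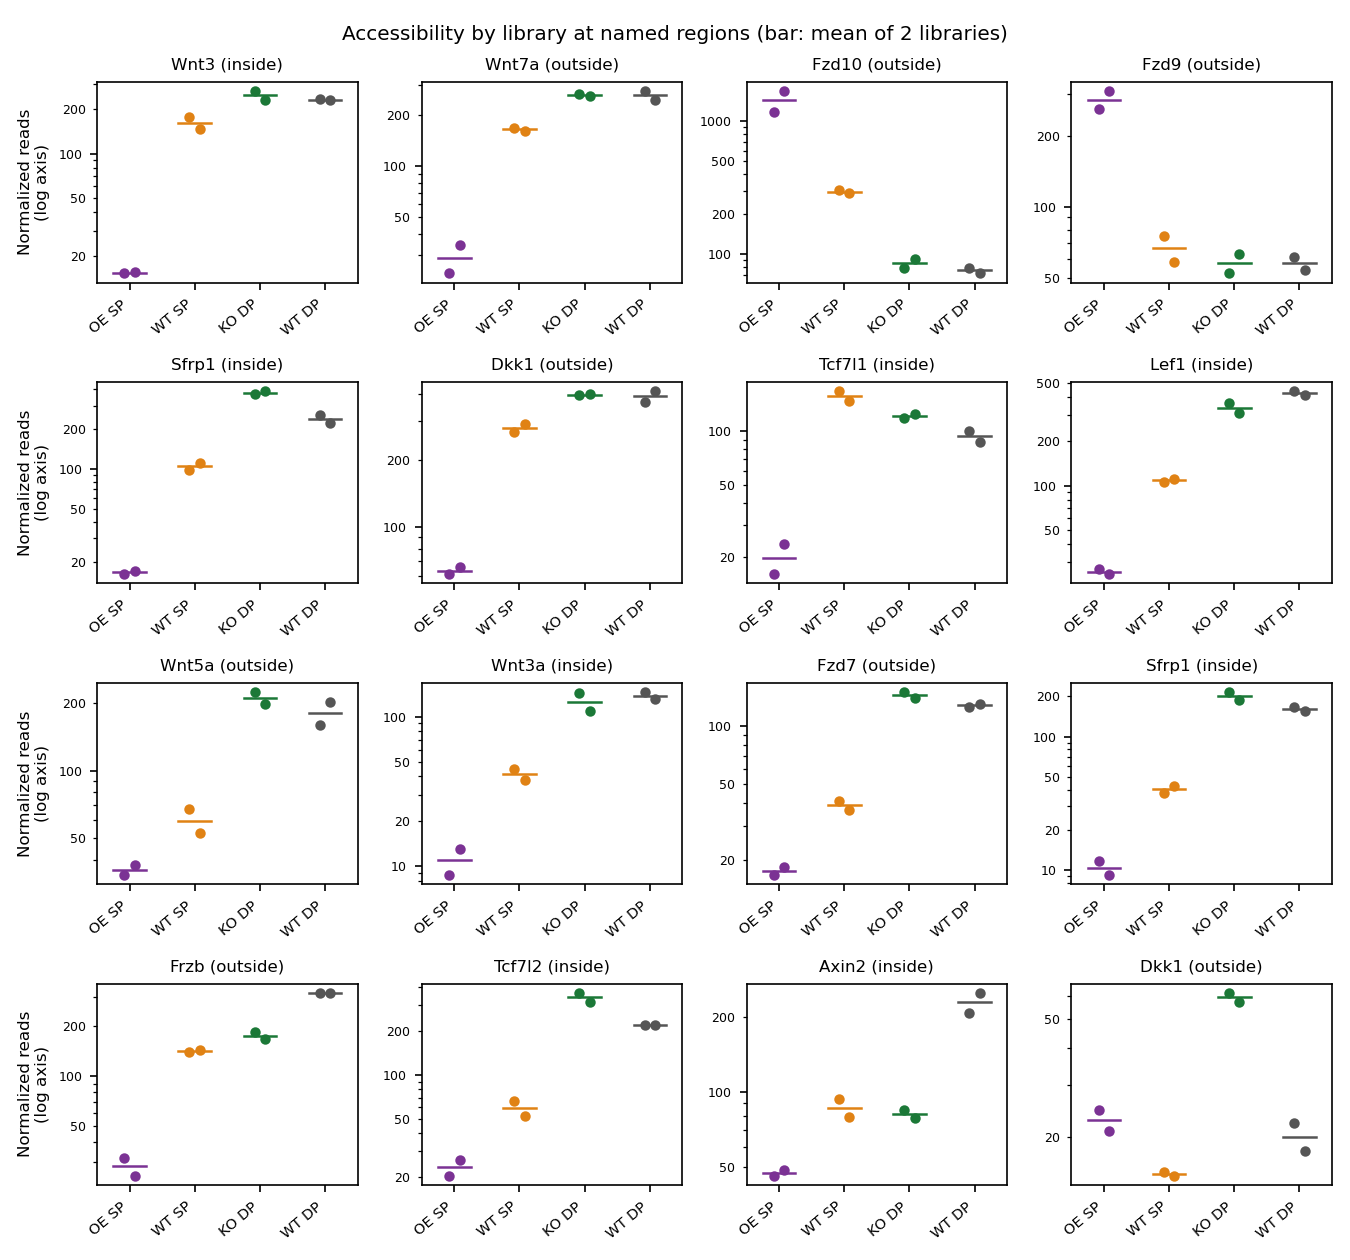
Each panel is a named region; points are normalized reads in the 2 libraries of OE SP, WT SP, KO DP and WT DP on a log axis and bars are means. Lef1, Sfrp1, Fzd7 and Wnt3a regions stepped down in WT SP and again in OE SP, Fzd10 stepped up in both, and Axin2 was high in WT DP alone.

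Another 42 genes of the pathway, outside the set above, had 725 regions tested. In OE SP against WT SP 289 (39.9%) were lower and 100 (13.8%) higher, against 31.9% and 16.6% of all regions. In WT SP against WT DP 55 (7.59%) were lower and 44 (6.07%) higher, near the 8.12% and 6.20% of all regions, and in KO DP against WT DP 24 (3.31%) were lower and 15 (2.07%) higher, against 2.21% and 1.72%. In WT SP the most certain changes were falls near Tle3, a co-repressor of the TCF proteins, inside the kinase gene Gsk3b, near Ctnnb1, which encodes beta-catenin, and inside Lgr6, an R-spondin receptor, with changes of -2.14, -1.75, -1.85 and -1.65 (limma adjusted p = 0.000377, 0.000605, 0.000639 and 0.000652). The region 27458 bp from Ctnnb1 at chr9:120905742-120906142 had 35.01 and 46.0 reads in OE SP, against 208 and 224 in WT SP (log2 change -2.29, SE 0.17, limma adjusted p = 5.01e-06). A region inside Lgr6 had 10.9 and 14.5 reads in OE SP, against 119 and 145 in WT SP (log2 change -2.95, SE 0.19, limma adjusted p = 3.32e-06). These losses held under each alternative. In KO DP, a region inside Wls, whose product carries Wnt proteins to the cell surface, had 77.2 and 71.3 reads, against 15.5 and 18.9 in WT DP (log2 change 1.84, SE 0.24, limma adjusted p = 0.00142). A region inside Prickle1, a gene of the polarity branch, had 273 and 275 reads in KO DP, against 102 and 103 in WT DP (log2 change 1.37, SE 0.17, limma adjusted p = 0.00112). Of the regions of pathway genes named for the knockout, only these 2 kept their call under every alternative run, leave-one-out included. Ror1, a Wnt5a receptor, had a region with 120.1 and 96.3 reads in KO DP, against 264 and 282 in WT DP (log2 change -1.30, SE 0.19, limma adjusted p = 0.00279), and all regions within 5 Mb of it had a median KO DP change that differed by -0.53 from that of the whole table, whose part in this value was not tested.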

How the data were processed

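Accessible chromatin was measured by Omni-ATAC-seq, in which a transposase cuts open DNA, on 50000 live sorted cells a library with 75 bp paired-end reads, per the labels' protocols. Bowtie2, MACS2, DiffBind 3.14.1 and the mm10 build are named in the submitters' processing notes. The authors deposited 1 table of normalized signal per region, with regions of median width 401 bp; the sources used here do not say how read ends were shifted. Every value was a whole multiple of the value of 1 read within 0.01, so 100% of values gave whole reads for depth and for edgeR 4.0.16. The main test was limma 3.58.1 (R 4.3.3) on log2(value + 5), with 1 fit of the 4 groups, a mean of at least 10 and Benjamini-Hochberg adjustment over all regions; fold changes of low regions are understated on this scale. The same fit was also run on simulated counts with an equal spread in all groups and few changed regions. That run cannot show how the fit behaves with the wider spread and many changes of OE SP. Regions were joined to gene spans of RefSeq (GRCm38.p6). Named regions were, for each gene, the highest at a gene end (or anywhere, if none), and, in each comparison and role, the called region of lowest adjusted p of up to 8 genes with groups that did not overlap; genes with 5 or more calls are given by counts, and other pathway genes by lowest adjusted p, up to 4 a comparison. The members and lists were chosen with earlier results of these data known. Replicate numbers were not treated as pairs.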

Additional observations from a re-analysis of the deposited data

How the results depend on the processing

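In WT SP against WT DP, 31 Wnt regions by limma were higher and 79 lower; scaling on the 10000 highest regions gave 20 and 122, fitting the compared groups alone 122 and 141, and regions within 10 kb alone 15 and 50, while leaving out 1 library gave 3 to 5 higher and 24 to 31 lower. In KO DP against WT DP, 6 were higher and 13 lower. The higher count was 14 under median-of-ratios scaling, 15 under scaling on the 10000 highest regions, 17 under quantile normalization, 14 with a pseudocount of 20, 54 with the compared groups alone and 19 under edgeR. Of all 167573 regions, 5802 were higher and 5678 lower under quantile normalization, and 4404 and 5363 with a pseudocount of 20. With a pseudocount of 1 they were 1902 and 2643. The lower count of Wnt regions was 21 under quantile normalization, 8 with a pseudocount of 1, 23 with a pseudocount of 20 and 109 with the compared groups alone. Leaving out 1 library gave 0 to 0 higher and 0 to 1 lower. In OE SP against WT SP, 77 were higher and 307 lower; within 10 kb the counts were 40 and 198, by construction with fewer regions, and leaving out 1 library gave 53 to 101 and 224 to 378. Fitting the OE SP and WT SP libraries alone gave 66 higher and 248 lower. The counts within 10 kb are of 458 regions tested, and the matching share over all regions is not given here. For the other changes the cause was not tested. With the replicate number as a block WT SP had 29 higher and 70 lower regions. KO DP had 7 and 10, and OE SP had 78 and 305. Over all 167573 regions the block gave 10380 higher and 13246 lower in WT SP. It gave 2723 and 3105 in KO DP, and 27544 and 52655 in OE SP. Same-numbered libraries deviated together by correlations of -0.00 to 0.06. This check cannot decide whether they share a batch, because libraries of WT DP, KO DP and WT SP differed by little more than counting noise. Of the named called regions, 43 of 51 in the OE SP comparison kept their call under every alternative run. In that of WT SP 18 of 32 did, and in that of KO DP 2 of 20. These totals include the other pathway genes. Both regions kept in KO DP were of such genes, Wls and Prickle1. Each named KO DP region of the main gene set lost its call under at least 1 alternative. The regions kept in WT SP include those of Tle3, Gsk3b, Ctnnb1 and Lgr6. Those kept in OE SP include regions of Tle3, Ctnnb1, Lgr6 and Prickle2. No named region changed direction, but the balance of higher and lower regions moved with scaling at Wnt5b, Tcf7l1 and Fzd10 in OE SP and with the fit or scaling among ligands in WT SP. With 2 libraries a group and a median of 27.0 to 42.0 reads a region, small changes at low regions were not detectable.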
